A study of Mus musculus with 8 samples.

Results

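Mucin-type O-glycosylation is built by families of Golgi glycosyltransferases, and their transcripts were followed here in mouse colon epithelium from tissue, from organoids and from assembloids. The genes were taken by symbol alone, as all rows of the deposited gene list whose symbol starts with Galnt, Galntl, B3gnt, B4galnt, B3galt, B4galt, St3gal, St6gal, St6galnac, Fut, Gcnt or C1galt followed by a digit. This gave 74 of 32285 rows, or 73 distinct symbols, because St6galnac2 carries 2 gene identifiers. Galnt6os, a non-coding transcript on the strand opposite to Galnt6, is one of the 74. Every row had at least 1 UMI (unique molecular identifier, 1 counted RNA molecule) in the epithelial cells used. Galnt15, B3gnt4, Fut7 and St6galnac1 were too low for a test between libraries, so 70 members were tested.

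The study asked how colon epithelium grown together with its stroma compares with organoids and with the organ itself. Epithelial cells from C57BL/6 mice came from crypts of colon tissue, from organoids, which are epithelium alone in Matrigel and full growth medium, and from colon assembloids. Assembloids were made by placing pre-grown organoids with cultured primary colon stromal cells in Matrigel droplets, kept on an orbital shaker in medium from which the surrogate Wnt (sWnt), the Wnt activator CHIR-99021, noggin and R-spondin 1 had been left out. The mice were young adult males by the study's methods, and the labels give no age and no further genotype. Each of these 3 groups had 2 libraries, and 2 more libraries held EpCAM-negative stromal cells of assembloids. The medium and the presence of stroma changed together between organoids and assembloids, so the 2 cannot be told apart. Dissociation also differed between groups, by the study's methods. Assembloids were digested with Liberase TL and DNase I and then TrypLE, and organoids with TrypLE alone. Tissue crypts were released with EDTA and DTT before TrypLE. Effects of dissociation cannot be told apart from those of the group. The study describes its single-cell libraries as biological replicates, while the labels do not state whether those of a group came from separate mice or cultures, and p-values measure the spread between these libraries.

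The pathway works in steps. A polypeptide GalNAc-transferase of the Galnt family places N-acetylgalactosamine on serine or threonine of a protein such as mucin 2, the main mucin that goblet cells of the colon secrete. Core enzymes then add galactose (core 1) or N-acetylglucosamine (core 3) and make branches (core 2 and core 4), extension enzymes lengthen the branches, and fucosyl- and sialyltransferases cap them. Several enzymes that share these gene names work on other substrates, such as N-glycans and glycolipids.

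The 6 epithelial libraries held 4300 to 28050 cells after filtering, with 36937090 to 187580004 UMIs each. The study's own filters left other numbers of cells. Assembloid replicate 1 held the 28050 cells, and assembloid replicate 2 held 6916. Median UMIs per cell were 3424.5 and 13890 in assembloids, 3562.5 and 3709 in tissue and 35228 and 7080 in organoids. The filters passed 25.4% and 38.7% of tissue barcodes and 55.1% to 89.3% of culture barcodes. Values are UMIs summed over the cells of a library and given as CPM, counts scaled to a common library size (with the TMM factors of edgeR, and without them where called plain). They come from the 3′ ends of transcripts. Marker sums and the levels of stromal libraries and organoid gates are plain CPM throughout. Cell barcodes shared by a pair of libraries numbered 6 to 71. The libraries differed in which cells they held. The 8 goblet cell markers summed to 18272 and 19693 CPM in tissue, 1987 and 3574 in assembloids and 228 and 378 in organoids. Cell cycle markers summed to 295 and 237 CPM in tissue, 664 and 505 in assembloids and 1432 and 1203 in organoids. In sums over a library, fewer cells of a type and less RNA per cell cannot be told apart. Assembloid libraries also held RNA of other cells. All 6 fibroblast markers were detected in both, with sums of 252 and 57.2 CPM, against at most 0.0541 in the other 4 libraries. Immune markers summed to 80.7 and 43.9 CPM in assembloids and to 0.853 to 6.17 in the others. The part of these differences in the results below was not tested, except that counts were repeated without the cells that carried any such UMI.

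Members as a whole took a larger share of the RNA in tissue than in culture. Their summed level in plain CPM was 4142 and 4326 for tissue, 1504 and 1933 for assembloids, and 1085 and 1600 for organoids. In the comparison of assembloids with tissue, 16 of 70 members were higher and 34 were lower in assembloids (edgeR's quasi-likelihood test, Benjamini-Hochberg adjusted p under 0.05 over all genes). Of all genes tested, 50.3% were called in that comparison, 27.0% higher and 23.2% lower. The median log2 fold change was -0.72 over the members and 0.03 over all genes. Organoids against tissue gave 7 members higher and 40 lower, where 47.2% of all genes were called (24.3% higher and 22.9% lower), with a median of -0.98 over members and 0.06 over all genes. Between the cultures, 9 members were higher and 31 lower in organoids than in assembloids, against 24.7% and 29.1% of all genes (53.7% in either direction). Plain CPM without TMM factors would shift the median of all genes by -0.38 (assembloids minus tissue), -0.24 (organoids minus tissue) and 0.14 (organoids minus assembloids) on the log2 scale. Without cells holding a fibroblast or immune marker UMI, the 3 comparisons called 48, 47 and 40 members instead of 50, 47 and 40.

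**Figure D1:**
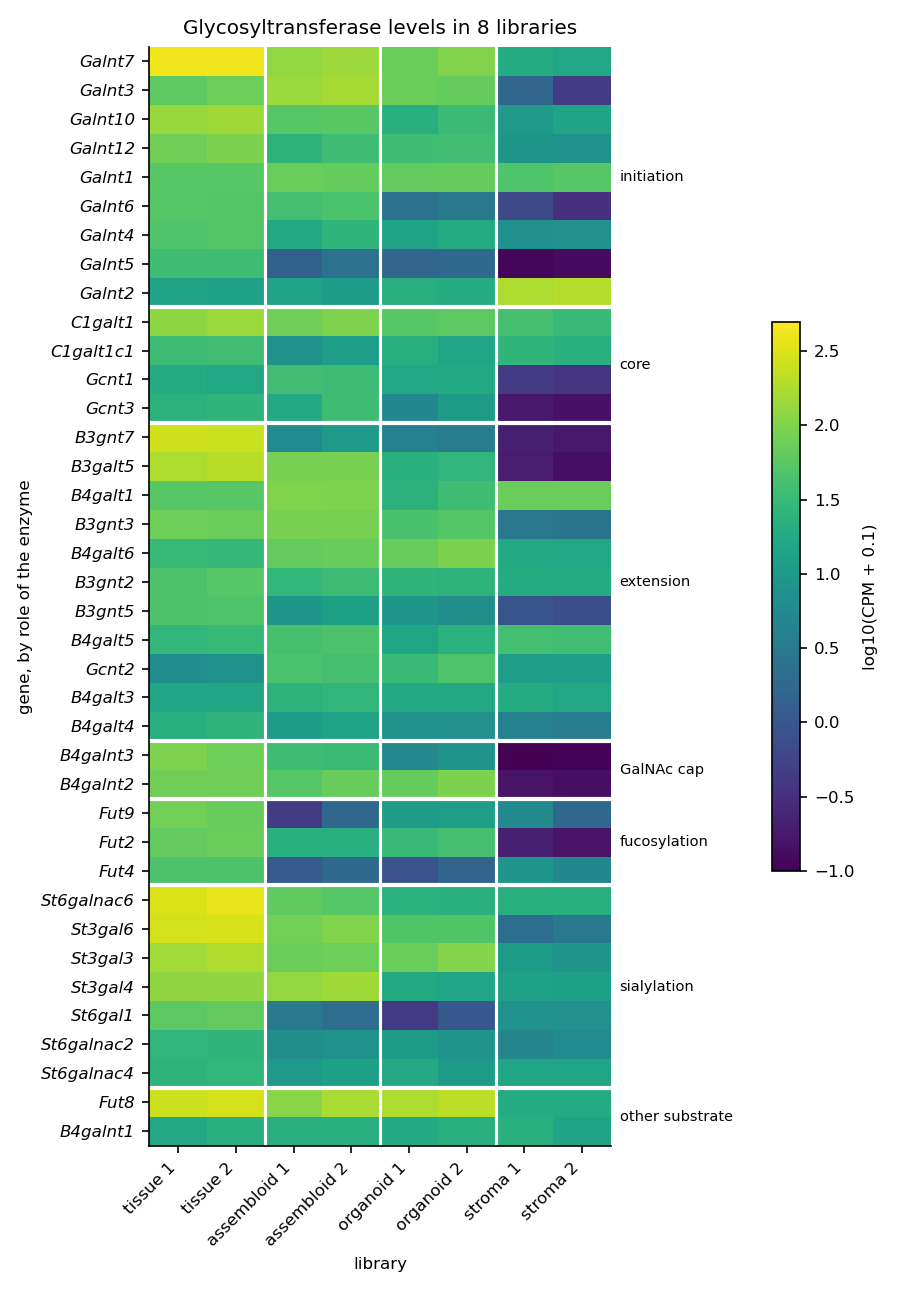
Levels of the 38 members with a group mean of at least 20 CPM, as log10(CPM + 0.1) in colour, with 1 column for each of the 8 libraries and rows grouped by the role of the enzyme. The row of B3gnt7 fell from 273 and 241 CPM in tissue to under 10 in every culture library.

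Of the 18 initiating members tested, 9 were lower and 4 higher in assembloids than in tissue, and 11 were lower and 1 higher in organoids. Of all genes, 27.0% were called higher and 23.2% lower in assembloids, and 24.3% higher and 22.9% lower in organoids. Galnt7 (chr8:57523828-57653032, minus strand), which prefers peptides that already carry GalNAc, was at 412 and 419 CPM in tissue, 125 and 145 in assembloids and 71.3 and 100.5 in organoids. The assembloid difference from tissue was log2 -1.62 ± 0.25, adjusted p = 0.00115, and the organoid difference was log2 -2.28 ± 0.26, adjusted p = 0.00022. All 4 culture libraries lay far under both tissue libraries. Galnt10, also a follow-up enzyme, was at 136 and 148 CPM in tissue, 54.8 and 55.6 in assembloids and 21.1 and 33.2 in organoids, and it was lower in both cultures (log2 -1.36 ± 0.25, adjusted p = 0.00244 in assembloids and log2 -2.39 ± 0.26, adjusted p = 0.000164 in organoids). Galnt12 was at 78.7 and 93.2 CPM in tissue, 25.2 and 35.4 in assembloids and 35.2 and 36.7 in organoids, and Galnt4 at 47.7 and 51 CPM in tissue, 17.3 and 25.1 in assembloids and 13.3 and 19 in organoids. Both genes were lower in both cultures, with log2 differences of -1.50 and -1.22 in assembloids and -1.26 and -1.61 in organoids (adjusted p from 0.000947 to 0.0044). Galnt4 lies inside the Poc1b gene on the same strand, and its counts cannot be fully separated from that gene's. Galnt5 (chr2:57997884-58045860, plus strand) was at 34.9 and 35.4 CPM in tissue, 1.29 and 2.38 in assembloids and 1.59 and 1.76 in organoids, with log2 differences of -4.27 ± 0.31 (assembloids, adjusted p = 3.31e-05) and -4.39 ± 0.31 (organoids, adjusted p = 2.24e-05).

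Not every initiating enzyme was low in culture. Galnt3 (chr2:66082766-66124994, minus strand) was at 60.0 and 76.8 CPM in tissue, 139 and 159.7 in assembloids and 74.9 and 66.2 in organoids. It was higher in assembloids than in tissue (log2 1.13 ± 0.22, adjusted p = 0.00347), while the organoid libraries overlapped with tissue (log2 0.05, adjusted p = 0.888). Its close relative Galnt6 was at 52.6 and 51.6 CPM in tissue, 40.2 and 44.1 in assembloids and 2.3 and 2.93 in organoids. Galnt6 was not called between assembloids and tissue (log2 -0.31 ± 0.19, adjusted p = 0.213), and organoids were far lower than either (log2 -4.32 ± 0.22, adjusted p = 6.59e-06, against tissue). Galnt6os on the opposite strand was also lower in organoids (log2 -4.64, adjusted p = 0.00112). Galnt1, a broadly acting isoenzyme, was at 54.7 and 55.2 CPM in tissue, 73.3 and 66.9 in assembloids and 63.6 and 65.8 in organoids, and neither culture was called against tissue (adjusted p = 0.144 and 0.324). Galnt2, another broadly acting isoenzyme, was at 14.4 and 12.9 CPM in tissue, 13.9 and 10.9 in assembloids and 21.4 and 19.6 in organoids. Organoids were slightly higher than tissue (log2 0.58 ± 0.20, adjusted p = 0.0407), and assembloids were not called (log2 -0.14). Galnt2 stood at 176 and 192 CPM in the stromal libraries, and without cells holding a fibroblast or immune marker UMI its assembloid difference was -0.36 (adjusted p = 0.142). When all passing cells were kept, the assembloid difference turned to 0.53 (adjusted p = 0.0393). The calls of Galnt3 and Galnt2 were lost without single libraries (the library then left alone in its group was taken to vary like the others). Galnt3 in assembloids was log2 0.94 without tissue replicate 1 (adjusted p = 0.085), and Galnt2 in organoids was log2 0.50 without organoid replicate 1 (adjusted p = 0.11), log2 0.67 without tissue replicate 1 (adjusted p = 0.153) and log2 0.51 without tissue replicate 2 (adjusted p = 0.261). With up to 20% mitochondrial UMIs, Galnt2 in organoids was also not called (log2 0.50, adjusted p = 0.0954).

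Among rare initiating members, Galntl5, a relative known from sperm, had no UMI in either tissue library, 8.31 and 1.4 CPM in assembloids and 0.00613 and 0.0588 in organoids. Against the limit that 3 UMIs over both tissue libraries would give (0.0310 CPM), the assembloid level was at least 173-fold higher. Assembloid replicate 1 held most of these UMIs, and from assembloid replicate 2 alone the level was at least 45.1-fold higher. The gene lies directly upstream of Galnt11 on the same strand. Galnt11 itself ranged from 15.3 to 19.1 CPM over the 6 epithelial libraries. Galnt16 was at 0.275 and 0.142 CPM in tissue, 4.32 and 1.93 in assembloids and 0.30 and 0.294 in organoids and was higher in assembloids (log2 3.87 ± 0.56, adjusted p = 0.000799). Galnt17 was at 4.26 and 4.71 CPM in tissue and 0.865 and 0.695 in assembloids (log2 -2.52 ± 0.38, adjusted p = 0.000943). In organoids only 1 UMI of Galnt17 was counted in both libraries together, which puts tissue 1181-fold higher, with a counting interval (95%, exact) from 211 to 46772.

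Core 1 synthase, C1galt1, was at 116 and 139 CPM in tissue, 79.3 and 97 in assembloids and 54 and 58 in organoids. It was lower in organoids (log2 -1.19 ± 0.22, adjusted p = 0.00237) and missed the threshold in assembloids (log2 -0.53 ± 0.21, adjusted p = 0.0665). C1galt1c1, the chaperone (Cosmc) that C1galt1 needs in order to fold, was at 34.8 and 37.2 CPM in tissue, 7.46 and 11.8 in assembloids and 20.7 and 15.1 in organoids. Both cultures were lower (log2 -1.91 ± 0.27, adjusted p = 0.000667 in assembloids and log2 -1.0 ± 0.26, adjusted p = 0.0124 in organoids), with no overlap with tissue. The organoid call was lost on leaving out single libraries (log2 -0.78 without organoid replicate 2 (adjusted p = 0.080), log2 -1.04 without tissue replicate 1 (adjusted p = 0.0583) and log2 -0.95 without tissue replicate 2 (adjusted p = 0.0772)), and with up to 20% mitochondrial UMIs allowed (log2 -0.66, adjusted p = 0.0878). Core 3 synthase, B3gnt6 (chr7:98192417-98199481, minus strand), adds the N-acetylglucosamine of core 3. Its level was low everywhere, at 4.72 and 6.27 CPM in tissue, 0.229 and 0.212 in assembloids and 0.257 and 0.471 in organoids, and it was lower in both cultures (log2 -4.63 ± 0.44, adjusted p = 0.000106 in assembloids and log2 -3.93 ± 0.42, adjusted p = 0.000159 in organoids). The branching enzymes did not share this fall in assembloids. Gcnt1, which makes core 2, was at 18.8 and 15.6 CPM in tissue, 37.1 and 33.8 in assembloids and 15.9 and 17.5 in organoids, higher in assembloids (log2 1.04 ± 0.19, adjusted p = 0.00244) and not called in organoids (log2 -0.04 ± 0.19). Gcnt3, the mucin-type core 2 and core 4 branching enzyme, was at 23.4 and 26.4 CPM in tissue, 18.3 and 35.1 in assembloids and 5.3 and 10.4 in organoids. The assembloid libraries of Gcnt3 lay on either side of the tissue libraries (log2 0.10 ± 0.37, adjusted p = 0.829), and organoids were lower (log2 -1.67 ± 0.38, adjusted p = 0.00697). On leaving out libraries, the assembloid value of Gcnt1 was log2 0.90 without tissue replicate 2 (adjusted p = 0.0544), and the organoid value of Gcnt3 was log2 -1.27 without organoid replicate 1 (adjusted p = 0.057).

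Of the extension enzymes, B3gnt7 (chr1:86302832-86307305, plus strand), which adds N-acetylglucosamine to galactose in growing chains, was among the members that fell most in both cultures. It stood at 273 and 241 CPM in tissue, 5.92 and 9.77 in assembloids and 4.13 and 3.46 in organoids. The assembloid difference from tissue was log2 -5.03 ± 0.32, adjusted p = 1.95e-05, and the organoid difference was log2 -6.08 ± 0.33, adjusted p = 7.16e-06. No culture library came near either tissue library. B3gnt5, which starts lacto-series glycolipids, was at 46.4 and 47.9 CPM in tissue, 9.08 and 12.3 in assembloids and 8.89 and 6.71 in organoids, and was lower in assembloids (log2 -2.14 ± 0.23, adjusted p = 0.000204) and in organoids (log2 -2.59 ± 0.24, adjusted p = 7.27e-05). B3galt5, which makes type 1 chains, was at 174 and 204 CPM in tissue, 86.9 and 87 in assembloids and 22 and 27.1 in organoids. It stepped down from tissue to assembloids (log2 -1.12 ± 0.21, adjusted p = 0.00315) and again to organoids (log2 -1.83 ± 0.22, adjusted p = 0.000339, organoids minus assembloids). B3gnt2, the main polylactosamine enzyme, was at 45.7 and 54.5 CPM in tissue, 28.1 and 33.7 in assembloids and 26 and 24.3 in organoids (log2 -0.70 in assembloids and -0.99 in organoids, adjusted p = 0.017 and 0.00349). B3gnt3, which extends core 1, was at 75.2 and 74.2 CPM in tissue, 87.6 and 88 in assembloids and 43.6 and 50.3 in organoids, not called in assembloids (log2 0.23 ± 0.19, adjusted p = 0.332) and lower in organoids (log2 -0.67 ± 0.19, adjusted p = 0.0191). Some of these calls were lost on leaving out single libraries. B3gnt2 in assembloids was log2 -0.54 without assembloid replicate 1 (adjusted p = 0.141), log2 -0.84 without tissue replicate 1 (adjusted p = 0.0651) and log2 -0.58 without tissue replicate 2 (adjusted p = 0.171), and in organoids log2 -0.86 without tissue replicate 2 (adjusted p = 0.0596). B3gnt3 in organoids was log2 -0.65 without tissue replicate 1 (adjusted p = 0.168) and log2 -0.67 without tissue replicate 2 (adjusted p = 0.153), and with up to 20% mitochondrial UMIs it was also not called (log2 -0.57, adjusted p = 0.0627).

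Gcnt2, the enzyme of I-branching that turns linear polylactosamine into branched chains, moved against this trend. It stood at 6.35 and 7.93 CPM in tissue, 44.8 and 41.1 in assembloids and 31.3 and 48.2 in organoids. The assembloid difference from tissue was log2 2.59 ± 0.26, adjusted p = 0.000135, and the organoid difference was log2 2.48 ± 0.26, adjusted p = 0.000137. Every culture library lay above both tissue libraries. Gcnt2 has 3 start sites in the RefSeq annotation, whose first exons differ while the 3′ end is shared, so these counts do not tell which was used. The 250 bases before each start (GRCm38.p6, RefSeq, plus strand, written 5′ to 3′) are shown because this gene also gave one of the largest changes between the marker gates below. Capitals mark the E-box letters CAGCTG or CAGATG, searched on both strands (CATCTG is CAGATG on the other strand). Such letters are bound by basic helix-loop-helix factors, among them ATOH1 of the secretory lineage.
Gcnt2 start 1 (chr13:40859518-40859767): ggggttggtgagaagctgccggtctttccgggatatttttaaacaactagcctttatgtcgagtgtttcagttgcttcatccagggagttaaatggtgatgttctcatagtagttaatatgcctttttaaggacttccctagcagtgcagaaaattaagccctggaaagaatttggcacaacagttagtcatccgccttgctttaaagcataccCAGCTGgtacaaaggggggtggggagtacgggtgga
Gcnt2 start 2 (chr13:40886508-40886757): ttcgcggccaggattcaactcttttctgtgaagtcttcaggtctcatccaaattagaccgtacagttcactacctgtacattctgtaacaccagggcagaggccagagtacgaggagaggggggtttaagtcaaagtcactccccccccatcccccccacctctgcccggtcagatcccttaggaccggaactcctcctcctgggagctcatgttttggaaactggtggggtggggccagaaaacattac
Gcnt2 start 3 (chr13:40917384-40917633): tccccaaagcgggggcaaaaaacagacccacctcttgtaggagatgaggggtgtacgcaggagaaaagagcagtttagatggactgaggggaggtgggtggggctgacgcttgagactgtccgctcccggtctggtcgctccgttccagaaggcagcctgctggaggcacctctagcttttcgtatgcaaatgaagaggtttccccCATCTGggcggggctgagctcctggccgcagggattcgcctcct
The windows of starts 1 and 3 hold 1 match each, and that of start 2 holds none. Over windows of 250 bases before to 50 bases after the start, CAGCTG was present in 16.3% and CAGATG in 17.2% of all 32851 promoters of the table. Of the 74 promoters of the 54 member symbols that matched the table, 17.6% and 16.2% held them.

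Galactosyltransferases of type 2 chains were split. B4galt1, the broadly acting enzyme (chr4:40804602-40854005, minus strand), was at 54.5 and 54.9 CPM in tissue, 98.3 and 95.4 in assembloids and 23.8 and 35.1 in organoids. It was higher in assembloids and lower in organoids than in tissue (log2 0.82 ± 0.23, adjusted p = 0.0157, and log2 -0.89 ± 0.23, adjusted p = 0.0116). B4galt6, a lactosylceramide synthase, was at 29.9 and 29 CPM in tissue, 65.2 and 69.2 in assembloids and 69 and 94.1 in organoids and was higher in both cultures (log2 1.19 ± 0.21, adjusted p = 0.00229, and log2 1.47 ± 0.22, adjusted p = 0.000781). B4galt5, which shares that activity, was at 28.5 and 30.0 CPM in tissue, 41.4 and 46 in assembloids and 14.8 and 22.7 in organoids. Assembloids were not called for B4galt5 (log2 0.58, adjusted p = 0.0636), and organoids were lower (log2 -0.64, adjusted p = 0.0475). B4galt3 was at 15.2 and 15.6 CPM in tissue, 24.7 and 27.5 in assembloids and 17.1 and 17 in organoids, higher in assembloids (log2 0.76 ± 0.18, adjusted p = 0.0075). B4galt4 was at 20.4 and 25.6 CPM in tissue, 10.9 and 13.5 in assembloids and 7.63 and 7.42 in organoids, lower in both cultures (log2 -0.91 ± 0.21, adjusted p = 0.00681, and log2 -1.61 ± 0.21, adjusted p = 0.000438). These smaller differences lost their calls on leaving out 1 library. In assembloids, B4galt1 was log2 0.80 without tissue replicate 1 (adjusted p = 0.133) and log2 0.81 without tissue replicate 2 (adjusted p = 0.126), B4galt3 was log2 0.73 without tissue replicate 1 (adjusted p = 0.103) and log2 0.76 without tissue replicate 2 (adjusted p = 0.0882), and B4galt4 was log2 -0.76 without tissue replicate 2 (adjusted p = 0.0884). In organoids, B4galt1 was log2 -0.89 without tissue replicate 1 (adjusted p = 0.0886) and log2 -0.88 without tissue replicate 2 (adjusted p = 0.0884). B4galt5 in organoids was log2 -0.63 without assembloid replicate 2 (adjusted p = 0.0522), log2 -0.38 without organoid replicate 1 (adjusted p = 0.132), log2 -0.67 without tissue replicate 1 (adjusted p = 0.175) and log2 -0.60 without tissue replicate 2 (adjusted p = 0.222). It was also not called with mitochondrial limits of 5% (log2 -0.45, adjusted p = 0.0967) and 20% (log2 -0.74, adjusted p = 0.0514), without a filter on low counts (log2 -0.58, adjusted p = 0.0514) or without the 6% of cells with the most UMIs (log2 -0.61, adjusted p = 0.0722).

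B4galnt2, which makes the Sda antigen of the colon, was at 77.9 and 79.6 CPM in tissue, 53.6 and 68.1 in assembloids and 66.7 and 92.1 in organoids, and neither culture was called against tissue (log2 -0.37 ± 0.23 and 0.01 ± 0.23, adjusted p = 0.211 and 0.976). B4galnt3, which caps chains with GalNAc, was at 95 and 76.8 CPM in tissue, 35.7 and 33.4 in assembloids and 5.39 and 8.07 in organoids. It fell in assembloids (log2 -1.31 ± 0.24, adjusted p = 0.00238) and more so in organoids (log2 -3.68 ± 0.26, adjusted p = 2.24e-05). With at most 5% mitochondrial UMIs, the assembloid difference of B4galnt3 was -0.51 (adjusted p = 0.0953). Its paralog B4galnt4 went the other way in organoids, at 0.514 and 1.09 CPM in tissue, 0.772 and 0.801 in assembloids and 6.21 and 6.44 in organoids (log2 3.0 ± 0.40, adjusted p = 0.000464). Fut4 and Fut9, which add α1,3-linked fucose to make Lewis x structures, were among the members that fell most. Fut4 (chr9:14748320-14752393, minus strand) was at 45.8 and 46.3 CPM in tissue, 1.09 and 1.76 in assembloids and 0.778 and 1.39 in organoids (log2 -5.02 ± 0.35, adjusted p = 2.9e-05 in assembloids, and log2 -5.42 ± 0.36, adjusted p = 1.64e-05 in organoids). Fut9 was at 81.2 and 68.9 CPM in tissue, 0.343 and 1.64 in assembloids and 10.7 and 11.5 in organoids. The 2 cultures parted for Fut9, since organoids kept an intermediate level (log2 -6.27 ± 0.63, adjusted p = 0.000136 in assembloids, and log2 -2.76 ± 0.52, adjusted p = 0.00291 in organoids). Fut2, the α1,2-fucosyltransferase of secreted H antigen, was at 65.2 and 73.3 CPM in tissue, 21.1 and 21.4 in assembloids and 32.5 and 40.0 in organoids, lower in both cultures (log2 -1.71 ± 0.20, adjusted p = 0.000267, and log2 -0.94 ± 0.19, adjusted p = 0.00445), and the organoid value was log2 -0.84 without tissue replicate 2 (adjusted p = 0.0646). Fut1, with the same linkage, was rare, at 0.716 and 0.852 CPM in tissue, 1.24 and 2.15 in assembloids and 2.89 and 3.43 in organoids, and was higher in assembloids (log2 1.11 ± 0.39, adjusted p = 0.0402) and in organoids (log2 2.01 ± 0.39, adjusted p = 0.00322). The assembloid call of Fut1 was lost at a mitochondrial limit of 5% (log2 1.13, adjusted p = 0.0933) and on leaving out any library but assembloid replicate 1 (log2 0.65 without assembloid replicate 2 (adjusted p = 0.17), log2 1.11 without organoid replicate 1 (adjusted p = 0.0627), log2 1.10 without organoid replicate 2 (adjusted p = 0.0639), log2 0.97 without tissue replicate 1 (adjusted p = 0.208) and log2 1.22 without tissue replicate 2 (adjusted p = 0.12)).

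Sialyltransferases were counted without St3gal5 and St6galnac5, which make gangliosides and were grouped with the members for other substrates. The classes are not exclusive. St6gal1 and St6galnac6 stayed among the sialyltransferases, and B3gnt5, B4galt5 and B4galt6 among the extension enzymes, though they also have such substrates. Of the 12 remaining rows tested, 7 were lower and 3 higher in assembloids than in tissue, against 23.2% and 27.0% of all genes. In organoids 8 were lower and 1 higher, against 22.9% and 24.3%. St6galnac6 (chr2:32599709-32620806, plus strand), an α2,6-sialyltransferase of O-glycans and gangliosides, was at 323 and 369 CPM in tissue, 61.8 and 53 in assembloids and 22.9 and 21.9 in organoids. The assembloid difference from tissue was log2 -2.59 ± 0.23, adjusted p = 7.18e-05, and the organoid difference was log2 -3.95 ± 0.24, adjusted p = 1.08e-05. The 3 groups did not overlap. St6galnac4 ends 10 bases upstream of St6galnac6 on the same strand, so reads through its end could be assigned to its neighbour. St6galnac4 itself was at 24.3 and 27.8 CPM in tissue, 9.48 and 12.6 in assembloids and 17.2 and 10.4 in organoids (log2 -1.24 in assembloids and -0.91 in organoids, adjusted p = 0.00585 and 0.0225). St6gal1 (chr16:23224740-23360350, plus strand), which adds α2,6-linked sialic acid to N-glycan chains, was at 58.8 and 63.5 CPM in tissue, 3.12 and 2.03 in assembloids and 0.325 and 0.931 in organoids (log2 -4.56 ± 0.44, adjusted p = 0.000116 in assembloids, and log2 -6.65 ± 0.50, adjusted p = 2.84e-05 in organoids). St6galnac2, one of the enzymes of sialyl-Tn, was at 27.2 and 26.1 CPM in tissue, 6.74 and 7.83 in assembloids and 10.6 and 8.12 in organoids for its main identifier (log2 -1.87 ± 0.21, adjusted p = 0.000244, and log2 -1.51 ± 0.21, adjusted p = 0.00060). The overlapping second identifier did not exceed 0.189 CPM in any library.

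The α2,3-sialyltransferases differed among themselves. St3gal6 was at 279 and 301 CPM in tissue, 81.7 and 97.9 in assembloids and 49.9 and 49.4 in organoids and was lower in both cultures (log2 -1.69 ± 0.22, adjusted p = 0.000448, and log2 -2.55 ± 0.22, adjusted p = 6.17e-05). St3gal3 was at 154 and 183 CPM in tissue, 74.7 and 76 in assembloids and 70.6 and 101 in organoids (log2 -1.16 in assembloids and -0.97 in organoids, adjusted p = 0.00459 and 0.0103). St3gal4 stood apart. At 120.0 and 123 CPM in tissue, 124 and 150.2 in assembloids and 17.6 and 15.1 in organoids, it was not called between assembloids and tissue (log2 0.17 ± 0.21, adjusted p = 0.509) and much lower in organoids (log2 -2.89 ± 0.22, adjusted p = 3.23e-05). St3gal1, which caps core 1, was at 0.661 and 1.28 CPM in tissue, 5.99 and 7.38 in assembloids and 6.58 and 9.74 in organoids, and both cultures were higher (log2 2.80 ± 0.38, adjusted p = 0.000553, and log2 3.09 ± 0.38, adjusted p = 0.000318). Stromal libraries held St3gal1 at 62.3 and 57.8 CPM, and without cells carrying a fibroblast or immune marker UMI the assembloid difference was 2.65 (adjusted p = 0.00138). Some of these calls were lost on leaving out single libraries. St3gal3 in assembloids was log2 -1.05 without tissue replicate 2. In organoids St3gal3 was log2 -1.09 without tissue replicate 1 and log2 -0.84 without tissue replicate 2. St6galnac4 in organoids was log2 -0.58 without organoid replicate 2, log2 -1.0 without tissue replicate 1 and log2 -0.81 without tissue replicate 2. With up to 20% mitochondrial UMIs, St6galnac4 in organoids was also not called (log2 -0.80, adjusted p = 0.0615).

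**Figure D2:**
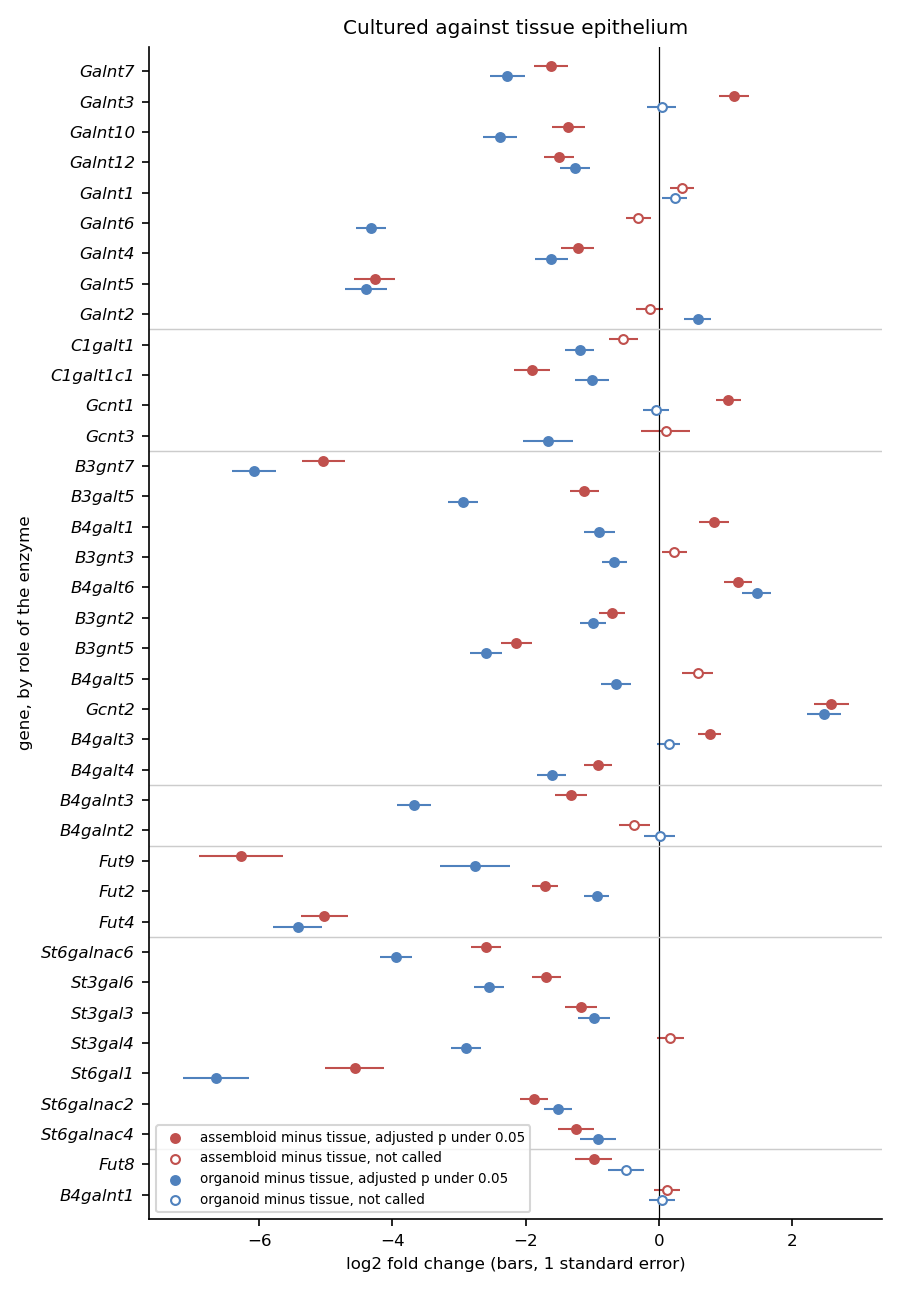
Log2 fold changes of the 38 members with a group mean of at least 20 CPM for assembloids minus tissue (red) and organoids minus tissue (blue), with bars of 1 standard error and open symbols where the adjusted p was 0.05 or more. Both comparisons share the tissue libraries and most symbols lie left of 0. Of the 6 members right of 0 in both, Gcnt2 and B4galt6 were called in both.

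Further members act on other substrates. Fut8, which adds core fucose to N-glycans, was at 265 and 285 CPM in tissue, 109 and 169.9 in assembloids and 175 and 214 in organoids, with log2 differences of -0.98 in assembloids (adjusted p = 0.0169) and -0.50 in organoids (adjusted p = 0.165). The assembloid value of Fut8 was log2 -0.66 without assembloid replicate 1 (adjusted p = 0.144), log2 -1.05 without tissue replicate 1 (adjusted p = 0.0871) and log2 -0.94 without tissue replicate 2 (adjusted p = 0.113). B4galnt1, the GM2 and GD2 ganglioside synthase, was at 17 and 21.2 CPM in tissue, 20.7 and 21 in assembloids and 17.9 and 21.5 in organoids and did not pass in either culture (adjusted p = 0.618 and 0.877). Of the 9 members in this class, 4 were lower and 2 higher in assembloids, against 23.2% and 27.0% of all genes. In organoids 1 was called (higher), where 24.3% of all genes were called higher and 22.9% lower. B3galt6, which works on the linker of proteoglycans, was at 4.46 and 5.56 CPM in tissue, 1.47 and 2.1 in assembloids and 11.2 and 6.97 in organoids. It was higher in organoids than in assembloids (log2 2.35 ± 0.33, adjusted p = 0.000638). Of the 36 members under 20 CPM in every group, 32 were tested. They gave 10 higher and 12 lower in assembloids, against 27.0% and 23.2% of all genes, and 4 higher and 12 lower in organoids, against 24.3% and 22.9%. Of the 15 members above every epithelial library in stroma, Fut10, St3gal1, St3gal2, St6galnac3 and St6galnac5 were higher in assembloids than in tissue. B3galt6, B3gnt8, B3gnt9 and Fut11 were lower, and the others of the 15 were not called. The part of stromal RNA in these differences was not tested. St6galnac5, with no UMI in tissue and 0.737 and 0.367 CPM in assembloids, stood at 7.21 and 10.4 CPM in stroma, and it dropped below the filter for a test once cells with a fibroblast or immune marker UMI were left out.

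The cultures also differed from each other. Organoids were lower than assembloids for Galnt6 (log2 -4.01 ± 0.22, adjusted p = 1.91e-05), St3gal4 (log2 -3.07 ± 0.22, adjusted p = 4.57e-05) and B4galnt3 (log2 -2.36 ± 0.25, adjusted p = 0.000188). B4galt1 (log2 -1.72 ± 0.23, adjusted p = 0.000549), Gcnt3 (log2 -1.77 ± 0.38, adjusted p = 0.00457) and B4galt5 (log2 -1.22 ± 0.23, adjusted p = 0.00264) were lower as well. In the other direction, organoids were higher for Fut9 (log2 3.51 ± 0.56, adjusted p = 0.00122), B4galnt4 (log2 3.01 ± 0.38, adjusted p = 0.000441), B3galt6 and Fut2 (log2 0.77 ± 0.19, adjusted p = 0.00966). The call of Fut2 was lost without assembloid replicate 1 (log2 0.71, adjusted p = 0.0625). Galntl5 (log2 -7.38, adjusted p = 0.00161) rested on 7 UMIs in organoids. For Galnt17, assembloids were 210-fold higher than the single organoid UMI, with a counting interval from 37.3 to 8347.

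Other genes listed for the pathway were also mostly lower in culture. Of 51 such genes listed (mucins, sugar nucleotide enzymes, transporters, sulfotransferases, enzymes that acetylate or remove sialic acid and a few further transferases), 48 were in the files and 46 were tested. In assembloids 7 were higher and 28 lower than in tissue, where 27.0% and 23.2% of all genes were called, and the median log2 difference was -0.83 (0.03 over all genes). In organoids 6 were higher and 28 lower than in tissue, against 24.3% and 22.9% of all genes, with a median of -1.17 (0.06 over all genes). Between the cultures, 7 were higher and 15 lower in organoids, against 24.7% and 29.1% of all genes. Muc2, the gel-forming mucin of goblet cells, was at 4854 and 5403 CPM in tissue, 205 and 428 in assembloids and 7.23 and 28 in organoids. Muc3, a membrane mucin, was at 1313 and 1122 CPM in tissue, 267 and 294 in assembloid libraries and 8.44 and 9.65 in those of organoids. Muc1, another membrane mucin, was higher in organoids, at 58.5 and 50.1 CPM against 6.07 and 5.35 in tissue (log2 3.25 ± 0.27, adjusted p = 4.66e-05). Casd1, which acetylates sialic acid, was at 113 and 98.4 CPM in tissue, 7.11 and 9.33 in assembloids and 10.6 and 11.7 in organoids (log2 -3.69 ± 0.23, adjusted p = 1.9e-05 and log2 -3.24 ± 0.22, adjusted p = 1.98e-05). Among the assembloid differences, the lowest was that of the sulfotransferase Gal3st2 (log2 -6.97 ± 0.46, adjusted p = 2.33e-05), from 8.5 and 9.3 CPM in tissue. The highest were those of rare transferases. B3galnt1 was at 0 and 0 CPM in tissue and 0.672 and 0.164 in assembloids, and Ggta1 at 0.0551 and 0 against 1.52 and 0.85. Neu1, which removes sialic acid, was higher in assembloids too (log2 1.26 ± 0.24, adjusted p = 0.00282).

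The question of which cells carried the members was read within cells chosen by markers. Each gate took epithelial cells of at least 2000 UMIs that lay in the top 10% of their library for 8 goblet or 8 colonocyte markers, with at least 20 marker UMIs per 10000, at least 3 markers detected and the opposite score at or below the library's median. No member is a marker. The goblet gate held 140 and 198 cells in tissue and 933 and 330 in assembloids, and the colonocyte gate held 204 and 258 in tissue and 1130 and 388 in assembloids. Median UMIs per goblet-gate cell were 18856.5 and 16080 in tissue and 4340 and 17242 in assembloids. Those per colonocyte-gate cell were 17201 and 15657 in tissue and 8114 and 18560 in assembloids. In organoids the goblet gate held 49 and 50 cells and the colonocyte gate only 18 and 6, so no test was made there. The organoid gates held the same numbers of cells with the top 5% and the top 20%. The markers separated the gates. Goblet markers summed to 86861 and 81037 CPM in the tissue goblet gate and 1329 and 1853 in the tissue colonocyte gate, and to 19078 and 26900 against 165 and 207 in assembloids. Colonocyte markers summed to 434 and 593 CPM in the goblet gate and 9484 and 9295 in the colonocyte gate of tissue. In assembloids they summed to 822 and 761 against 9249 and 14750. Goblet-gate cells of assembloids held less marker RNA than those of tissue. They also held more cell cycle marker RNA, at 553 and 449 CPM against 46.8 and 126. Their fibroblast marker sum was 273 and 84.4 CPM, where it was 0 in tissue. In the colonocyte gate of assembloids the fibroblast sum was 89.9 and 73.9 CPM (0 in tissue). Cell cycle markers summed to 205 and 143 CPM there (23.3 and 42.6 in tissue). Stem markers summed to 626 and 463 CPM in the goblet gate and 28.0 and 48.9 in the colonocyte gate of tissue. In assembloids they summed to 136 and 166 against 50.7 and 34.1. The part of these differences in what follows was not tested. Possible doublets were not removed, and the counts were repeated without the 6% of cells with the most UMIs.

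In tissue, 25 of 53 members tested were higher and 12 lower in the goblet gate than in the colonocyte gate, where 44.3% of all genes were called, 21.9% higher and 22.3% lower. The median over the members was log2 0.89, and 0.03 over all genes. Higher in the goblet gate were 8 of 13 initiating members tested (2 lower), 4 of 7 core members and 5 of 8 sialyltransferases (2 lower). Galnt5 stood at 98 and 87.6 CPM in the goblet gate and 1.48 and 2.21 in the colonocyte gate of tissue (log2 5.61 ± 0.27, adjusted p = 2.07e-06). St6gal1 was at 139 and 170.4 CPM in the goblet gate and 4.7 and 4.2 in the colonocyte gate of tissue (log2 5.12 ± 0.34, adjusted p = 3.57e-06), and B3gnt6 at 31 and 35.4 CPM in the goblet gate and 0.742 and 1.55 in the colonocyte gate of tissue (log2 4.83 ± 0.41, adjusted p = 1.35e-05). The 2 gates did not overlap for any of them. Galnt7 was at 885 and 735 CPM in the goblet gate and 203 and 206 in the colonocyte gate of tissue, and B3gnt7 at 636 and 458 CPM in the goblet gate and 67.8 and 77.8 in the colonocyte gate of tissue (log2 1.98 ± 0.19, adjusted p = 2.76e-05, and log2 2.89 ± 0.30, adjusted p = 5.15e-05). Of the 13 extension enzymes tested, 5 were higher and 6 lower in the goblet gate. Colonocytes held more of Gcnt2, of B4galt1 and of St3gal4. For Gcnt2 only 2 UMIs were counted in the goblet gate of both tissue libraries together and 334 in the colonocyte gate, which is 132-fold higher with a counting interval from 36.2 to 1092. B4galt1 was at 15.3 and 17.3 CPM in the goblet gate and 263 and 163 in the colonocyte gate of tissue (log2 -3.65 ± 0.23, adjusted p = 3.05e-06). St3gal4 was at 74.3 and 67.1 CPM in the goblet gate and 501 and 363 in the colonocyte gate of tissue (log2 -2.59 ± 0.19, adjusted p = 5.59e-06). B4galnt2 was also lower in goblet-gate cells, at 59.3 and 49.8 CPM in the goblet gate and 132 and 130.4 in the colonocyte gate of tissue (log2 -1.27 ± 0.16, adjusted p = 0.000193). Galnt17, with 2 UMIs in the goblet gate and 117 in the colonocyte gate, was 46.1-fold higher in the latter (counting interval 12.5 to 385). Its call was lost with at most 5% mitochondrial UMIs (log2 -3.60, adjusted p = 0.0545), and after thinning it was too low for a test.

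In assembloids the same gates separated fewer members, 15 higher and 12 lower in the goblet gate, where 33.0% of all genes were called, 15.9% higher and 17.1% lower. The median was log2 0.21 over the members and 0.06 over all genes. Of the 25 members higher in the tissue goblet gate, 14 were also higher in that of assembloids. Of the 12 that were lower in tissue, 10 were lower in assembloids too. The same overlap over all genes was not computed, so these counts are not read as a trait of the members. Galnt5 was at 9.55 and 16.7 CPM in the goblet gate and 0 and 0 in the colonocyte gate of assembloids. Against the limit of 3 UMIs in the colonocyte gate of both libraries, that is at least 65.0-fold higher. B3gnt5 was at 20.8 and 26.4 CPM in the goblet gate and 3.71 and 1.73 in the colonocyte gate of assembloids (log2 3.06 ± 0.32, adjusted p = 0.000151), and Fut4 at 2.68 and 6.95 CPM in the goblet gate and 0.718 and 0.945 in the colonocyte gate of assembloids (log2 2.43 ± 0.39, adjusted p = 0.00158). Fut2 was at 58.3 and 58.7 CPM in the goblet gate and 25.8 and 18.6 in the colonocyte gate of assembloids (log2 1.40 ± 0.19, adjusted p = 0.000636), and in tissue at 152 and 132 against 47.7 and 57.9. The gate difference of Fut2 was 1.40 in assembloids and 1.42 in tissue on the log2 scale. St3gal4 was lower in the goblet gate of assembloids as it was in tissue, at 64.7 and 56.6 CPM in the goblet gate and 379 and 441 in the colonocyte gate of assembloids (log2 -2.76 ± 0.19, adjusted p = 1.93e-05). Galntl6 was at 7.7 and 8.35 CPM in the goblet gate and 1.32 and 0.945 in the colonocyte gate of assembloids (log2 2.79 ± 0.46, adjusted p = 0.00169). With gate cells thinned to 2000 UMIs each, 16 members were called in place of 27.

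The difference between the gates was itself compared between assembloids and tissue. It differed for 13 of 53 members, 5 upward and 8 downward, where 10.3% of all genes were called, 5.3% upward and 4.98% downward. In the clearest cases a gene found mostly in 1 gate in tissue was in both gates of assembloids. Gcnt2 was at 0.333 and 0.266 CPM in the goblet gate and 46.5 and 32.3 in the colonocyte gate of tissue, and at 34.7 and 25.7 CPM in the goblet gate and 44.7 and 49.3 in the colonocyte gate of assembloids. Its gate difference was -6.92 in tissue and -0.65 in assembloids on the log2 scale (difference log2 6.27 ± 0.52, adjusted p = 0.000291, fitted values that rest on 2 UMIs in the tissue goblet gate), and the remaining assembloid difference was log2 -0.36 without assembloid replicate 2 (adjusted p = 0.205). Galnt3 was at 137 and 144 CPM in the goblet gate and 18.8 and 26.5 in the colonocyte gate of tissue, and at 147 and 161 CPM in the goblet gate and 165 and 149 in the colonocyte gate of assembloids (difference log2 -2.67 ± 0.25, adjusted p = 0.000452). Galnt3 in colonocyte-gate cells of assembloids was thus near the level that goblet-gate cells, and not colonocyte-gate cells, had in tissue. Tissue cells outside the 2 gates were not read. Gcnt3 was at 71.3 and 83.9 CPM in the goblet gate and 8.41 and 10.6 in the colonocyte gate of tissue, and at 48.9 and 94 CPM in the goblet gate and 33.6 and 52.9 in the colonocyte gate of assembloids (difference log2 -2.34 ± 0.25, adjusted p = 0.000704). B4galt1 stood at 81.1 and 58.7 CPM in the goblet gate and 160.3 and 132 in the colonocyte gate of assembloids, a smaller gap than in tissue (difference log2 2.57 ± 0.29, adjusted p = 0.00114).

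In other members the gap was smaller and the higher gate lower in assembloids. Galnt10 was at 317 and 274 CPM in the goblet gate and 29.9 and 42.2 in the colonocyte gate of tissue, and at 80.1 and 107 CPM in the goblet gate and 37.7 and 37.9 in the colonocyte gate of assembloids (difference log2 -1.75 ± 0.29, adjusted p = 0.00544). B3gnt2 was at 22.3 and 21 CPM in the goblet gate and 157 and 141 in the colonocyte gate of tissue, and at 23.4 and 19.8 CPM in the goblet gate and 46.7 and 49 in the colonocyte gate of assembloids (difference log2 1.63 ± 0.24, adjusted p = 0.00305). St6galnac6 was called in opposite directions. It was at 703 and 638 CPM in the goblet gate and 307 and 346 in the colonocyte gate of tissue, and at 55.6 and 57.2 CPM in the goblet gate and 102 and 96.7 in the colonocyte gate of assembloids (difference log2 -1.86 ± 0.24, adjusted p = 0.0019). Galnt6 was at 85.7 and 78.8 CPM in the goblet gate and 39.8 and 30.1 in the colonocyte gate of tissue, and at 47.1 and 54.2 CPM in the goblet gate and 55.4 and 45.7 in the colonocyte gate of assembloids (difference log2 -1.24 ± 0.25, adjusted p = 0.0137). Galnt6 lost this call at a mitochondrial limit of 5% (log2 -0.83, adjusted p = 0.127) and with gates of the top 5% (log2 -1.07, adjusted p = 0.0599). For B3gnt5 the gap widened (51.7 and 73.5 CPM in the goblet gate and 24 and 23.4 in the colonocyte gate of tissue, difference log2 1.67 ± 0.42, adjusted p = 0.0334).

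St6galnac2 was at 47.3 and 35.4 CPM in the goblet gate and 5.69 and 9.72 in the colonocyte gate of tissue, and at 7.54 and 9.12 CPM in the goblet gate and 6.22 and 6.77 in the colonocyte gate of assembloids (difference log2 -2.05 ± 0.42, adjusted p = 0.0154). Galnt12 was at 198 and 211 CPM in the goblet gate and 35.9 and 47.5 in the colonocyte gate of tissue, and at 47.2 and 77.3 CPM in the goblet gate and 24.9 and 28.5 in the colonocyte gate of assembloids (difference log2 -1.12 ± 0.26, adjusted p = 0.023). St6gal1 in assembloids was at 2.85 and 4.64 CPM in the goblet gate and 1.44 and 0.157 in the colonocyte gate (difference log2 -3.04 ± 0.82, adjusted p = 0.0443). Galnt17 had 9 and 3 UMIs in the goblet and colonocyte gates of assembloids, against 2 and 117 in tissue (difference log2 7.21, adjusted p = 0.00929). These 4 members and B3gnt5 lost the call without 1 library. The values were log2 1.43 without tissue replicate 1 (adjusted p = 0.0594) for B3gnt5, log2 -0.96 without tissue replicate 1 (adjusted p = 0.123) for Galnt12, log2 -1.51 without tissue replicate 1 (adjusted p = 0.0768) for St6galnac2, log2 5.38 without assembloid replicate 1 (adjusted p = 0.25) for Galnt17 and log2 -0.45 without assembloid replicate 1 (adjusted p = 0.968) for St6gal1. Of the 13, 8 kept their call without each library in turn, and 7 of these, all but Galnt6, kept it in every alternative.

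**Figure D3:**
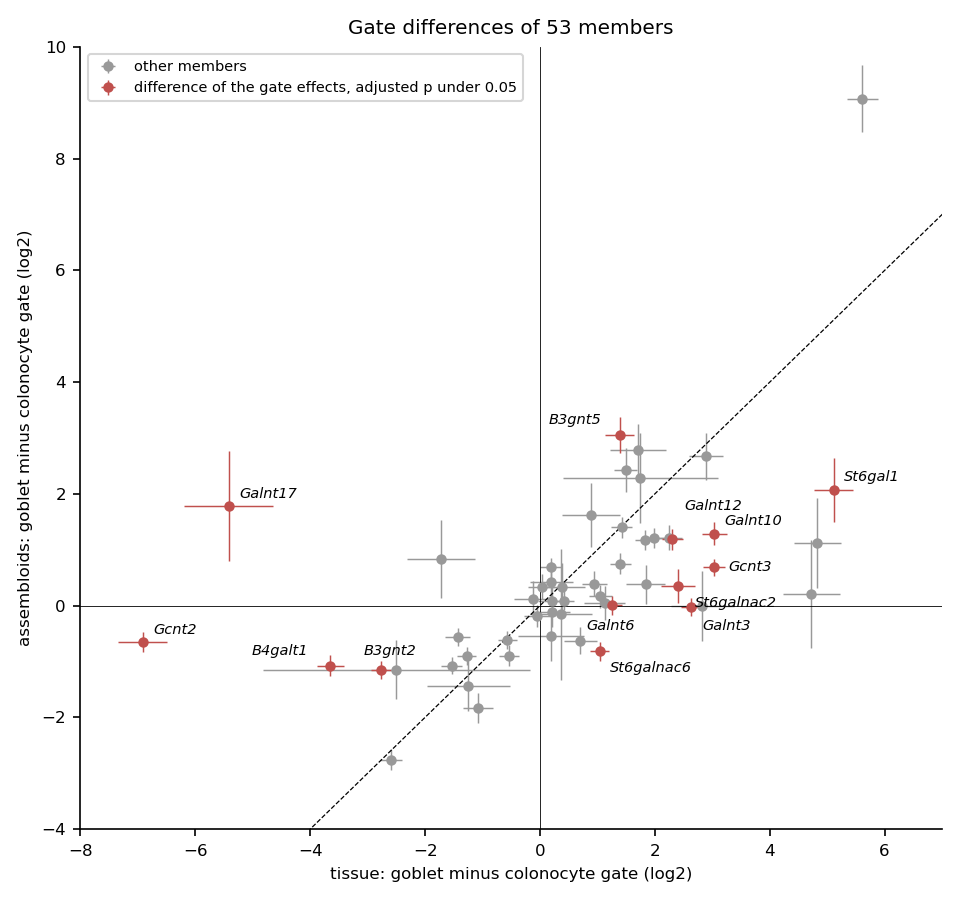
Each point is 1 of the 53 members tested between gates, with the log2 difference of the goblet minus the colonocyte gate in tissue (x axis) and in assembloids (y axis), bars of 1 standard error, and a dashed line where both are equal. The 13 members in red differed between the 2 settings by the test, and the grey point at the top is Galnt5, whose fitted value rests on 0 UMIs in the colonocyte gate of assembloids.

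**Figure D4:**
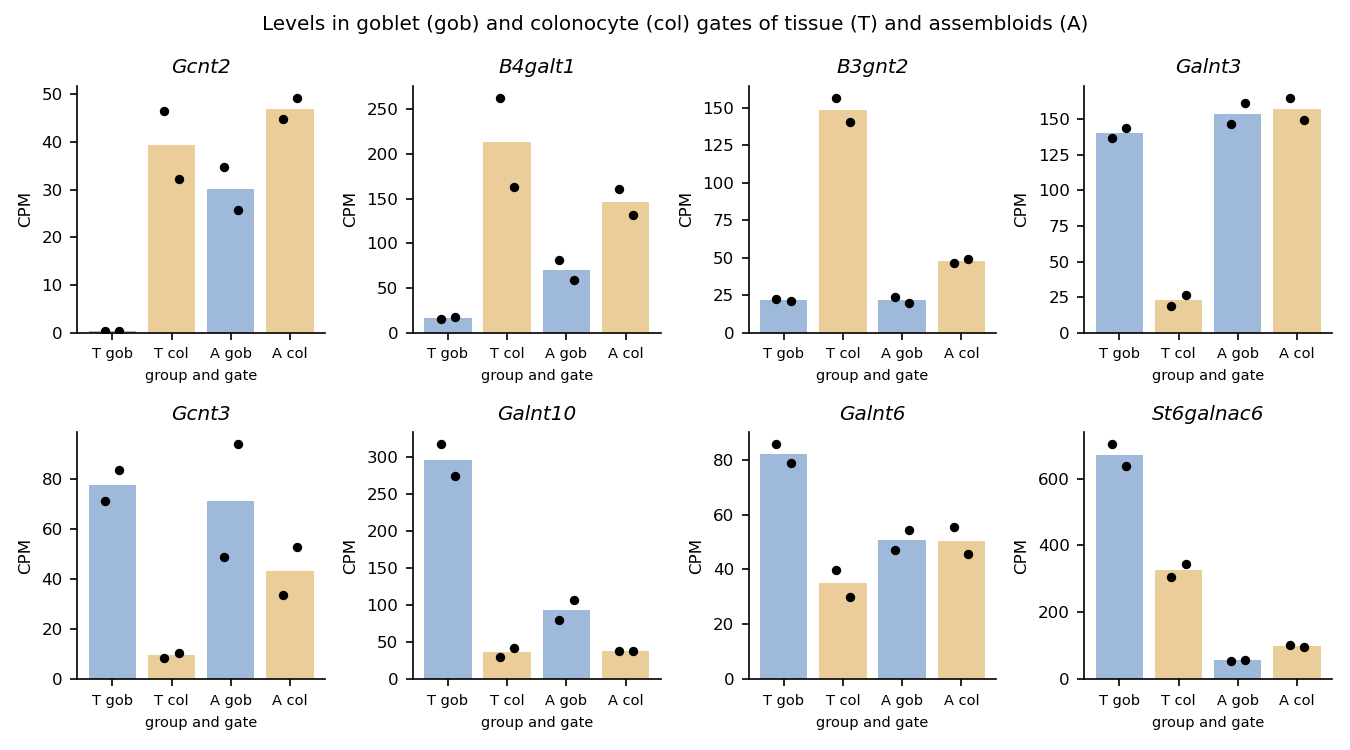
CPM (linear axis from 0) in the goblet and colonocyte gates of tissue (T) and assembloids (A) for 8 members that kept their call without each library in turn. Bars are means of 2 libraries and points the libraries. Gcnt2 was at 0.333 and 0.266 CPM in the tissue goblet gate and above 25 in the other 3 gate groups.

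Within the goblet gate, 6 of 50 members were higher and 25 lower in assembloids than in tissue, where 43.0% of all genes were called (23.3% higher and 19.7% lower), and the median was log2 -1.15 over the members. B3gnt7 was at 636 and 458 CPM in tissue and 14.6 and 27.5 in assembloids (log2 -4.69 ± 0.36, adjusted p = 0.00037), St6gal1 fell by log2 5.35 (adjusted p = 0.000182) and B3gnt6 by 6.03 (adjusted p = 0.000221). B3galt2, a further β1,3-galactosyltransferase, had 148 UMIs in the tissue gate and 3 in that of assembloids, a ratio of 90.8 with a counting interval from 30.5 to 446. Gcnt2 went up, from 2 to 373 UMIs, a ratio of 101 (27.8 to 839). B4galt1 (log2 2.10 ± 0.24, adjusted p = 0.0012) and B4galt6 (log2 2.02 ± 0.21, adjusted p = 0.000898) were higher too. St6galnac6 (log2 -3.57 ± 0.21, adjusted p = 0.00022), Galnt7 (log2 -1.68 ± 0.22, adjusted p = 0.00183) and Galnt10 (log2 -1.66 ± 0.21, adjusted p = 0.00188) were lower. B4galnt3 (log2 -0.79, adjusted p = 0.123) and B3gnt2 (adjusted p = 0.996), both lower in the assembloid libraries as a whole, were not called here. In the colonocyte gate B3gnt2 was lower (log2 -1.60, adjusted p = 0.000176) and B4galnt3 was not called (log2 -0.03, adjusted p = 0.916). In tissue, B4galnt3 (95 and 76.8 CPM) and Fut9 (81.2 and 68.9) were higher in whole libraries than in either gate (17.7 to 45.5 and 6.68 to 13.3). The gates thus do not show which cells held most of these 2. Without tissue replicate 1 or 2, 17 and 20 members were called in place of 31, and those then not called included C1galt1 (log2 -1.16 with all libraries, and log2 -1.24 without tissue replicate 1 (adjusted p = 0.0855) and log2 -1.14 without tissue replicate 2 (adjusted p = 0.0919)).

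Within the colonocyte gate, 9 of 47 members were higher and 21 lower in assembloids, where 47.2% of all genes were called (25.7% higher and 21.5% lower), with a median of log2 -0.50. Galnt3 (log2 2.82 ± 0.22, adjusted p = 3.14e-05), Gcnt3 (log2 2.21 ± 0.29, adjusted p = 0.000387) and B4galt6 (log2 1.18 ± 0.20, adjusted p = 0.00162) were higher. Gcnt4, a core 2 enzyme, had 58 UMIs against 1 in tissue, a ratio of 33.8 with a counting interval from 5.83 to 1357, and it was too low for a test after thinning, with gates of the top 5% or with at most 5% mitochondrial UMIs. St3gal1 was higher by log2 2.29 with all libraries, but log2 2.20 without tissue replicate 1 (adjusted p = 0.0643) and log2 2.35 without tissue replicate 2 (adjusted p = 0.054). Fut4 (log2 -5.08 ± 0.36, adjusted p = 1.86e-05), B3gnt7 (log2 -4.50 ± 0.34, adjusted p = 2.29e-05) and Fut9 (log2 -4.47 ± 0.55, adjusted p = 0.000266) fell most among those above 3 UMIs in each group, and Galnt17, at 3 UMIs against 117, was 67.0-fold lower (22.4 to 329). Thinning the gate cells to 2000 UMIs left 17 calls in place of 30, and leaving out tissue replicate 1 or 2 left 17 and 16.

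The other genes listed for the pathway were read in the same gates. Muc2 is itself a gate marker and was left out of these counts. Of 40 tested, 24 were higher and 8 lower in the tissue goblet gate, against 21.9% and 22.3% of all genes, with a median of log2 0.98. In that of assembloids 8 were higher and 11 lower, against 15.9% and 17.1% of all genes, with a median of log2 0.24. For 14 the gate difference was shifted toward the colonocyte gate in assembloids, where 4.98% of all genes were called in that direction, and the median shift was log2 -0.85 (0.01 over all genes). Cmah, which makes N-glycolylneuraminic acid, the sialic acid that human cells lack, was at 83.3 and 53.2 CPM in the goblet gate and 0.99 and 1.55 in the colonocyte gate of tissue. In assembloids it was at 7.2 and 4.02 in the goblet gate and 20.1 and 13.2 in the colonocyte gate, which reverses the order (difference log2 -7.26 ± 0.40, adjusted p = 9.64e-05). Muc4, a membrane mucin, was at 261 and 185 CPM in the goblet gate and 3.71 and 5.75 in the colonocyte gate of tissue and at 59.8 and 80.7 CPM in the goblet gate and 33.7 and 23.3 in the colonocyte gate of assembloids (difference log2 -4.22 ± 0.42, adjusted p = 0.000594). Of the 18 genes of sugar nucleotide synthesis on the list, 10 were among the 14, such as Gmds of GDP-fucose synthesis (difference log2 -1.50 ± 0.34, adjusted p = 0.0232) and Gne of sialic acid synthesis (difference log2 -0.96 ± 0.23, adjusted p = 0.0251).

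The 49 and 50 goblet-gate cells of organoids give levels but no test. Their goblet markers summed to 8782 and 9970.3 CPM and their cell cycle markers to 754 and 702, so that they held less goblet marker RNA and more cell cycle marker RNA than the tissue gate, and the part of this in the levels below was not tested. Members summed to 1995 and 2660 plain CPM there, against 7232 and 6459 in tissue and 1724 and 2349 in assembloids. Levels of single members in this gate are plain CPM, while those of tissue and assembloids carry the TMM factors. Galnt5 was at 20.4 and 31.7 CPM, above both goblet-gate values of assembloids and below both of tissue. Fut2 was at 115 and 135 CPM, above those of assembloids. Its order against tissue depends on the scaling and was not read. B3gnt7 at 10.6 and 21.1, St6gal1 at 9.8 and 12.5 and B3gnt6 at 0.754 and 2.88 stayed far under tissue. Gcnt2 was at 19.6 and 26.9 CPM, well above the 0.333 and 0.266 of tissue. Galnt6 at 6.78 and 14.4 was below the goblet-gate values of both other groups.

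Stromal cells of assembloids carried a different set, given here side by side without a test, because their counts came from another version of the counting software. Members summed to 935 and 928 plain CPM. Members that stood above every epithelial library in both stromal libraries included Galnt2 (176 and 192 CPM), St3gal1 (62.3 and 57.8), Fut11 (33.7 and 33.6), St3gal2 (24.2 and 24.6) and B4galt2 (19.3 and 20.4). Galnt3, Galnt6, Gcnt3, B3gnt7, B3galt5, B4galnt2, B4galnt3 and Fut2 were under 2 CPM in stroma. C1galt1 (40.1 and 31.5), C1galt1c1 (26.3 and 22.4) and B4galt1 (73.7 and 71.5) were present in both kinds of cells.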

How the data were processed

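Single-cell RNA was measured with the 10x Genomics 3′ kit. The deposited counts are UMI counts per gene and barcode, made by the authors with Cell Ranger on mm10, per the labels. The file headers name Cell Ranger 7.1.0 for the epithelial libraries and 6.0.1 for stroma, and whether intronic reads were counted is not given in the sources used here. Cells had at least 500 genes and at most 10% mitochondrial UMIs. Of these, epithelial libraries kept cells with at least 2 UMIs of 6 epithelial markers and more of these than of fibroblast and immune markers, and stromal libraries kept the cells that failed this rule. UMIs were summed per library or marker gate and tested over all genes with edgeR 4.0.16 (filterByExpr, TMM, quasi-likelihood test, Benjamini-Hochberg adjustment) in R 4.3.3. The library was a block between gates. Standard errors are the log2 fold change over the square root of F. Doublets were not removed. On simulated data, 191 to 194 of 200 changed genes were recovered, with 5 to 11 false calls. The changes were large (median fitted log2 of 2.03 to 2.05 for raised genes) and made only in well-counted genes. Recovery of smaller changes or of genes with few UMIs was not simulated. DESeq2 1.42.0 served as an alternative.

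Printed by rule were the 38 members with a group mean of at least 20 CPM, the 3 highest and 3 lowest called members of each comparison among those with a group mean of at least 2 CPM and all members whose gate difference differed. Members and lists were chosen with earlier results of these data known. Positions are from GENCODE M21 (GRCm38), where all 74 members matched, and coordinates of genes are given with their strand. On the same strand 8 members overlap another gene and on the opposite strand 34 do, so their counts may be shared. Counting intervals and limits from 3 UMIs cover counting error only. Replicate numbers of different groups did not deviate together (correlations from -0.02 to 0.04).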

Additional observations from a re-analysis of the deposited data

Results flagged for a closer look

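The difference between the goblet and colonocyte gates was not the same in assembloids as in tissue for 13 members, by the interaction term of edgeR's quasi-likelihood test over all genes. Values are the gate difference of assembloids minus that of tissue on the log2 scale. The difference was more toward the colonocyte gate for St6gal1 (-3.04, adjusted p = 0.0443), Galnt3 (-2.67, adjusted p = 0.000452), Gcnt3 (-2.34, adjusted p = 0.000704), St6galnac2 (-2.05, adjusted p = 0.0154), St6galnac6 (-1.86, adjusted p = 0.0019), Galnt10 (-1.75, adjusted p = 0.00544), Galnt6 (-1.24, adjusted p = 0.0137) and Galnt12 (-1.12, adjusted p = 0.023). It was more toward the goblet gate for B3gnt2 (1.63, adjusted p = 0.00305), B3gnt5 (1.67, adjusted p = 0.0334), B4galt1 (2.57, adjusted p = 0.00114), Gcnt2 (6.27, adjusted p = 0.000291) and Galnt17 (7.21, adjusted p = 0.00929). Galnt17 rests on 2 to 9 UMIs in 3 of its 4 gate sums. Of the 13, 8 kept the call without each library in turn, and St6gal1, St6galnac2, Galnt12, B3gnt5 and Galnt17 did not. The goblet gate of assembloids also held less goblet marker RNA and more cell cycle marker RNA than that of tissue, and the part of this in the 13 differences was not tested.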

How the results depend on the processing

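The number of members called stayed within 1.5 times its value in every alternative for assembloids against tissue, organoids against tissue, organoids against assembloids and the gates in tissue. Between gates in assembloids, 16 members were called with gate cells thinned to 2000 UMIs, in place of 27. For the difference between gate effects, 13 members became 20 without a filter on low counts, 8 with at most 5% mitochondrial UMIs, 8 with gates of the top 5% and 21 with gates of the top 20%, and leaving out single libraries gave 11 to 21. Within the goblet gate, leaving out single libraries gave 17 to 34 in place of 31. Within the colonocyte gate it gave 16 to 32 in place of 30, and thinning gave 17. Without the 6% of cells with the most UMIs, 36 and 27 members were called between gates in tissue and assembloids and 14 for the difference. Shares of all genes called under each alternative are not given here. Changes in the counts of members are thus not read as a trait of the members. Galnt2 in assembloids against tissue turned from -0.14 to 0.53 (adjusted p = 0.0393) when all passing cells were kept, and the cause was not tested. In the same comparison Galnt14, a rare member, went from -3.29 (adjusted p = 0.00862) to 0.15 (adjusted p = 0.911) with up to 20% mitochondrial UMIs. Of the calls, 31 of 50 for assembloids against tissue, 35 of 47 for organoids against tissue, 27 of 40 between cultures, 25 of 37 and 15 of 27 between gates in tissue and assembloids, 7 of 13 for the difference, 15 of 31 within the goblet gate and 12 of 30 within the colonocyte gate were kept in every alternative. With the number of each library as a replicate block, 49, 47 and 42 members were called in the 3 comparisons of libraries, 32 within the goblet gate and 34 within the colonocyte gate. The labels do not say that libraries with the same number belong together. The comparison of gates in organoids gave no value, since both colonocyte gates and the goblet gate of organoid replicate 1 held fewer than 50 cells. Depth limited members with 3 UMIs or fewer in a group, for which ratios carry counting intervals. Leaving out cells with a fibroblast or immune marker UMI was an alternative chosen after seeing the data.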
